A study of Mus musculus with 3 samples.

Results

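Long-term hematopoietic stem cells (LT-HSCs) were divided by the share of their ATAC reads that came from the mitochondrial genome, and the cells with the highest shares were compared with those with the lowest. Donors were wild-type females 24 months of age, from whose marrow LSK CD150+CD48-CD34- cells were sorted after c-Kit enrichment and antibody staining. DOGMA-seq, run here on cells permeabilised with digitonin, gives ATAC fragments, transcripts and antibody tags under 1 barcode. The 3 libraries came from 1 pool of cells, so both groups share genotype, age, sex, sort and stain, and the spread between animals could not be measured. Of 4369 called cells, 3724 had antibody counts, and 3723 of these had ATAC fragments and RNA UMIs as well. The 3629 cells with at least 10 tags summed over the 12 antibodies were kept. The 907 cells with a share above 0.433% form the mitochondria-high group and the 908 cells with a share of 0.0830% or less form the mitochondria-low group, each about 25% of kept cells. The cells between them were divided at the median share into a lower-middle and an upper-middle group of 907 cells each.

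Mitochondria carry their own small circular genome in many copies per cell. It encodes subunits of the respiratory chain together with ribosomal and transfer RNAs, whereas all other mitochondrial proteins are encoded in the nucleus. Mitochondrial DNA is not wrapped in nucleosomes, so the transposase used for ATAC cuts it readily wherever it can enter the organelle. Quiescent HSCs are known for relying little on respiration and for clearing mitochondria by mitophagy. The mitochondrial read share describes reads recovered from this genome. It is not a count of organelles, and how far it follows mitochondrial content, entry of the transposase into permeabilised cells or recovery of the library was not tested.

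The cells were selected on this share, so the values of the share itself are a description. Among the 3629 kept cells the share ran from 0 to 11.5% with a median of 0.215%. The median was 0.0225% in mitochondria-low and 0.724% in mitochondria-high cells, with 0.149% and 0.306% in the middle groups. In reads, the medians were 15 and 521 per cell. The last cell inside the low group had 0.0830% and the first outside it 0.0834%, and the boundary of the high group lay between 0.4331% and 0.4334%. Both cuts therefore fall within a continuous distribution. In 203 kept cells no mitochondrial read was recorded.

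The upper end of the distribution was long. Shares above 1% occurred in 296 cells and shares above 5% in 56 cells. The 182 cells with the highest 5% of shares, from 2.08% upwards, held 49.5% of all mitochondrial reads of the kept cells, and the mitochondria-high group as a whole held 77.5%. These 182 cells differed from the other 725 mitochondria-high cells in several measures and are therefore also given separately. This division was made after the data were seen.

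**Figure D1:**
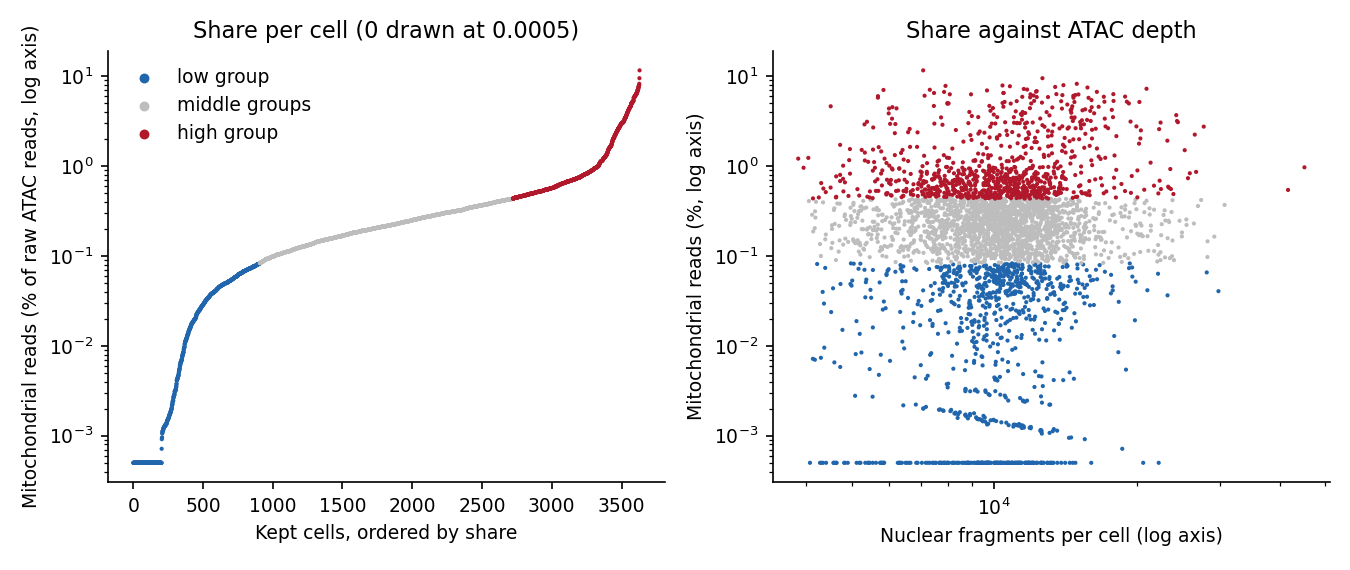
Mitochondrial reads as a percentage of raw ATAC reads (log axes) for each of the 3629 kept cells, by rank on the left and against nuclear fragments on the right. Blue points are the mitochondria-low, grey points the middle and red points the mitochondria-high group, and the 203 cells at 0 are drawn at the bottom. The share varied widely at every depth, with medians of 10048.5 nuclear fragments in mitochondria-low and 10459 in mitochondria-high cells.

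The nuclear ATAC libraries of both groups were of nearly equal size. Mitochondria-low cells had a median of 10048.5 nuclear fragments (interquartile range 8429 to 11609) and mitochondria-high cells 10459 (8305 to 12618). The median of all kept cells was exceeded by 45.2% of mitochondria-low cells (95% Clopper-Pearson interval 41.9 to 48.5) and by 52.0% of mitochondria-high cells (48.7 to 55.3). These intervals, like all others given here, cover counting error only. The highest 5% of shares had a median of 12084 fragments. The other 725 mitochondria-high cells had a median of 10128. When kept cells were divided into 10 bins of depth, the deepest bin of 363 cells contained 129 mitochondria-high and 57 mitochondria-low cells, whereas the shallowest contained 101 of each.

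Duplicate reads made up a median of 77.3% of raw ATAC reads in mitochondria-low and 76.0% in mitochondria-high cells, and 72.3% in the highest 5% of shares. The median of all kept cells was exceeded by 64.8% of mitochondria-low and 26.9% of mitochondria-high cells. The mitochondrial read share has the same denominator. The median TSS enrichment, the density of insertions around transcription start sites relative to flanking sequence, was 5.55 in mitochondria-low and 5.56 in mitochondria-high cells. The median nucleosome signal, the ratio of mononucleosomal to nucleosome-free fragments, was 0.976 and 0.980. Fragments in promoters, defined as 1 kb on each side of the start, made up 37.95% of all nuclear fragments of mitochondria-low cells, 37.63% and 37.59% in the middle groups, and 37.27% in mitochondria-high cells. In the highest 5% of shares this figure was 35.98%.

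A property of deep libraries moved with the share. Cells with an excess of sites covered by 3 or more fragments, a sign of more than 2 copies of the genome under 1 barcode, made up 4.63% of mitochondria-low cells (42 of 908, 3.35 to 6.20) and 10.7% of mitochondria-high cells (97 of 907, 8.76 to 12.9). In the highest 5% of shares the figure was 22.0% (40 of 182, 16.2 to 28.7), and in the other mitochondria-high cells 7.86%. When the groups were formed within each of 10 bins of nuclear depth instead, the figures were 7.36% in mitochondria-low and 7.25% in mitochondria-high cells. At matched depth both groups thus had the same figure within counting error. Barcodes with excess overlaps had a median of 18107 nuclear fragments and 3296 UMIs, against 10066 and 1932 in all other kept cells. The call used the same expected number of sites for all cells, whatever their depth. The fragment counts of these barcodes are therefore not independent of the call. Doublets were not removed, and whether these barcodes are pairs of cells or cells with replicated DNA was not tested.

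RNA totals were almost level across the share. The median was 1902 UMIs in mitochondria-low cells (interquartile range 1628.5 to 2319.75), 2019 and 2024 in the middle groups, and 1959 in mitochondria-high cells (1629.5 to 2399). The median of all kept cells was exceeded by 409 of the 908 mitochondria-low cells (41.8 to 48.3%) and 441 of the 907 mitochondria-high cells (45.3 to 51.9%). In the highest 5% of shares the median was 1963 UMIs, so these cells had deeper ATAC libraries but RNA totals like those of the other groups. Their RNA yield per 1000 nuclear fragments was accordingly 169 UMIs, against 196 in mitochondria-low cells. Detected genes per cell had medians of 1174 in mitochondria-low and 1191 in mitochondria-high cells, and intronic UMIs made up 36.7% and 36.8% of all UMIs. The mapped share of raw RNA reads had medians of 94.0% and 93.9%, and the median of all kept cells was exceeded by 56.5% of mitochondria-low (53.2 to 59.8) and 40.1% of mitochondria-high cells (36.9 to 43.4).

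**Figure D2:**
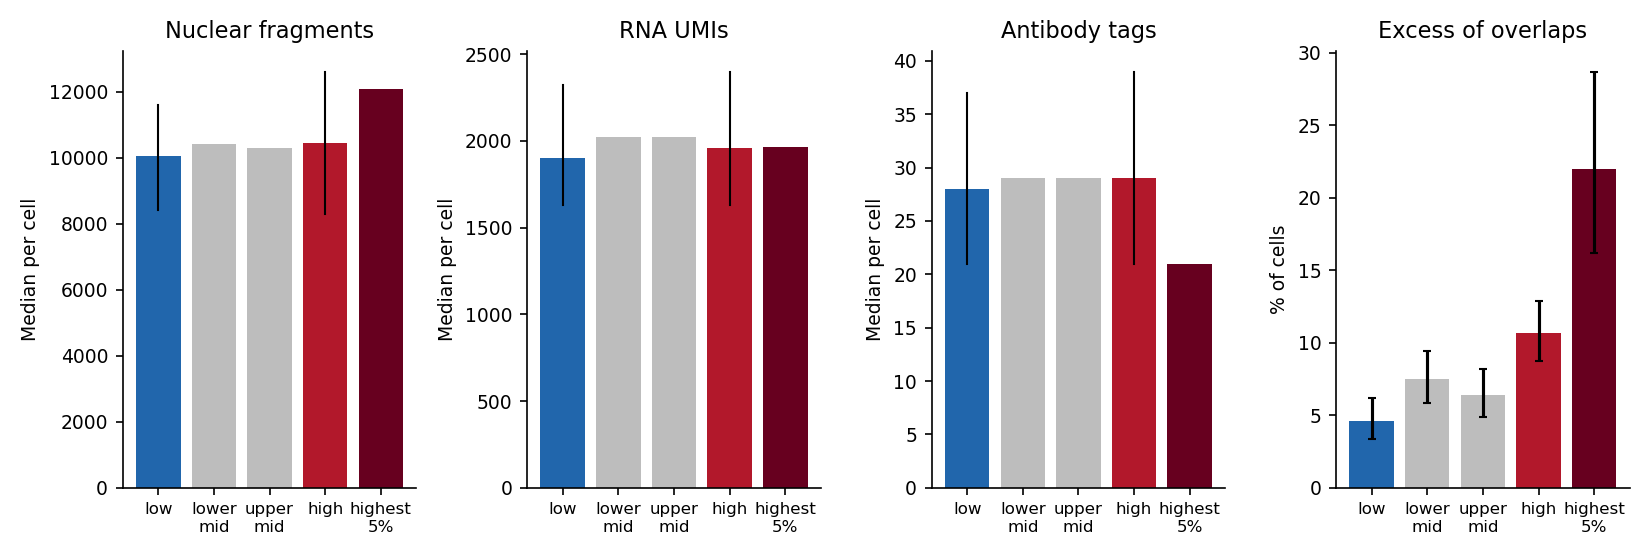
Bars show median nuclear fragments, RNA UMIs and antibody tags per cell and the percentage of cells with an excess of overlapping fragments, in the low, lower-middle, upper-middle and high groups of the mitochondrial read share and in the highest 5% of shares, which is part of the high group. Black lines are interquartile ranges in the low and high groups for the first 3 panels and 95% Clopper-Pearson intervals for the last. The highest 5% had a median of 12084 fragments and 21 tags, and 22.0% of its cells had an excess of overlaps.

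Antibody staining was similar in total. Mitochondria-low cells carried 30.6 tags per cell on average and mitochondria-high cells 31.5, with medians of 28 and 29. Most of these tags came from the CD274 antibody, with 18538 of 27779 in mitochondria-low and 19532 of 28550 in mitochondria-high cells. Total staining therefore largely follows CD274. The highest 5% of shares stood apart with 25.3 tags per cell and a median of 21. The other mitochondria-high cells had a median of 30. Relative to mitochondria-low cells the log2 ratio of mean total tags was 0.041 for all mitochondria-high cells (95% conditional binomial interval 0.017 to 0.065), 0.11 without the highest 5% and -0.28 for the highest 5% alone. Total staining was thus slightly higher than in mitochondria-low cells among mitochondria-high cells with shares below 2.08% and lower among those above. For all mitochondria-high cells the ratio was -0.012 with groups formed within bins of depth, -0.0100 without the deepest 5% of cells and -0.046 between the highest and lowest 10% of shares.

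The markers used to separate HSC subtypes showed small differences. CD61, the integrin subunit beta 3 that marks platelet-biased HSCs (PLT-HSCs), averaged 3.60 tags per cell in mitochondria-low cells, 3.74 and 3.82 in the middle groups and 3.90 in mitochondria-high cells, with a log2 ratio of 0.11 between high and low (0.046 to 0.18). CD274, the immune checkpoint ligand PD-L1, averaged 20.4, 21.1, 22.1 and 21.5 in the same order, with a log2 ratio of 0.077 (0.048 to 0.11). These intervals treat each tag as independent and leave out the spread between cells. Across kept cells the rank correlation with the share was 0.026 for CD61, 0.023 for CD274 and 0.00029 for all tags. CD27, a receptor of the TNF receptor family, averaged 0.881 in both mitochondria-low and mitochondria-high cells. Median CD61 was 3 tags in both groups. Among the highest 5% of shares CD274 was lower than in mitochondria-low cells, with a log2 ratio of -0.24 (-0.29 to -0.18). CD27 was at -0.32 (-0.61 to -0.054) and CD61 at -0.10 (-0.23 to 0.022) in these cells. Between the highest and lowest 10% of shares CD274 was at 0.018 and CD61 at 0.040, and CD274 was at 0.025 without the deepest 5% of cells, with intervals that included 0.

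CD357, the TNF receptor family member GITR encoded by Tnfrsf18, was lower in mitochondria-high cells. It averaged 3.31, 3.36 and 3.39 tags in the low and middle groups and 2.96 in mitochondria-high cells (2.85 to 3.08), a log2 ratio of -0.16 (-0.24 to -0.086). Relative to the summed tags of the other antibodies, most of which were CD274, the ratio was -0.23. The lower level was concentrated in the highest 5% of shares, where CD357 averaged 2.12 tags per cell (1.91 to 2.34) and the log2 ratio to mitochondria-low cells was -0.65. In the other mitochondria-high cells the log2 ratio was -0.062 with an interval of -0.14 to 0.017. Among the 363 cells with at least 50 tags the sign was opposite, at 0.25 with 91 cells in each group.

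MERTK, a receptor tyrosine kinase for apoptotic cells, averaged 0.803 tags per cell in mitochondria-low cells, 0.736 and 0.675 in the middle groups and 0.695 in mitochondria-high cells. Its log2 ratio of high to low was -0.21 (-0.37 to -0.053), and the upper-middle group was at least as low as the high group. In the highest 5% of shares MERTK averaged 0.478 tags, and without these cells the interval of the ratio included 0. CD201, the endothelial protein C receptor that marks HSCs, averaged 0.387 and 0.440 tags, with a log2 ratio of 0.19 (-0.024 to 0.40). It was the only antibody among the 9 with at least 200 tags over both groups whose mean in the highest 5% of shares, 0.434, was above that of mitochondria-low cells. CD68, a lysosomal protein of macrophages, averaged 0.139, 0.0970, 0.116 and 0.0959 tags from the low to the high group. Its log2 ratio of -0.53 (-0.94 to -0.13) rests on 126 tags in mitochondria-low and 87 in mitochondria-high cells. CD106, the adhesion molecule VCAM-1 (taken as such from the reagents listed in the methods, since the deposited antibody list describes this tag as a CD68 antibody), and P2X7R had intervals that included 0, and CD163, CD183 and CD206 gave fewer than 100 tags in each group.

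**Figure D3:**
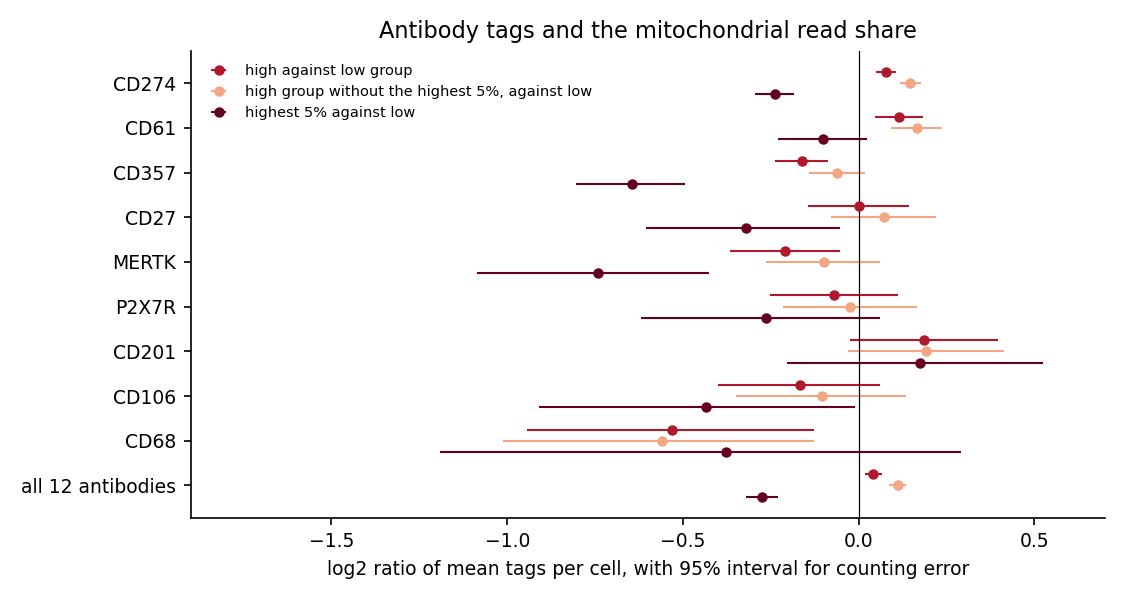
Points are log2 ratios of mean tags per cell against the low group, with lines for 95% conditional binomial intervals, for the 9 antibodies with at least 200 tags over both groups and for all 12 antibodies summed. Red is the whole high group, orange the high group without the highest 5% of shares and dark red the highest 5% alone. CD357 is at -0.65 in the highest 5% but -0.062 in the other mitochondria-high cells.

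To compare the share with HSC subtype, a gate on the PLT-HSC markers of the study was applied, with cuts chosen here. This gate takes cells with CD61 and CD274 above and CD357 and CD27 at or below the medians of all kept cells. It held 8.37% of mitochondria-low cells (76 cells, 6.65 to 10.4), 9.26% and 9.92% in the middle groups and 10.1% of mitochondria-high cells (92 cells, 8.26 to 12.3). The gate held 6.59% of the highest 5% of shares (12 of 182 cells, 3.45 to 11.2), and the intervals of the low and high groups overlapped. The opposite gate for multilineage HSCs (MUL-HSCs) held 11 cells in each of the groups, 1.21% of both. The median share was 0.239% in the 342 PLT-gated cells, 0.194% in the 61 MUL-gated cells and 0.213% in the remaining cells, and the interquartile ranges of PLT-gated cells (0.102 to 0.470%) and MUL-gated cells (0.112 to 0.372%) overlapped.

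Nuclear chromatin was compared gene by gene, by summing the fragments over each gene and 2 kb upstream in either group. The sums were scaled by all nuclear fragments of the group, 9236508 in mitochondria-low and 9916481 in mitochondria-high cells, and 0.5 was added to each count. Of 32583 genes, 18050 had at least 200 fragments over both groups. Their median log2 ratio of high to low was -0.011, and 95% of them lay between -0.27 and 0.26. A log2 ratio of 0.5 or more was found for 19 genes (0.105%) and of -0.5 or less for 17 genes (0.0942%). Of promoters with at least 200 fragments, 12518 in number, 13 (0.104%) and 29 (0.232%) were past these limits. With 1 pool of cells no test can be made, and most of the genes past 0.5 were thinly covered: the 19 had a median of 269 fragments and the 17 a median of 263.

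The gene with the highest log2 ratio was Myo3a, encoding a myosin of the inner ear and retina, at 0.73 (0.39 to 1.09). It held 108, 114 and 103 fragments in the low and middle groups and 193 in the high group, so that mitochondria-high cells stood apart from the other 3 groups. Within Myo3a lies a nuclear copy of part of the mitochondrial genome.

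Nuclear copies of mitochondrial DNA arose in evolution by insertion of mitochondrial fragments into chromosomes. Aligning the 16299 bp mouse mitochondrial genome to the nuclear chromosomes of GRCm38, the assembly also called mm10, gave 119 stretches of at least 100 bp with a median identity of 78.2%. The longest near-identical copies were on chromosomes 1 and 2. The copy at chr1:24611535-24616188 is 99.9% identical over 4654 aligned bases to mitochondrial positions 6390 to 11042, and the annotation lists only pseudogenes there (among them Gm10925 and Gm28438). The copy at chr2:22587288-22590534 is 97.4% identical over 3260 aligned bases to mitochondrial positions 4441 to 7699 and lies within an intron of Myo3a. Both lie on the minus strand of the chromosome, and together they cover 40.5% of the mitochondrial genome.

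Fragments assigned to these copies were far more numerous in cells with high shares. On chromosome 1 there was 1 fragment in mitochondria-low cells, 5 and 8 in the middle groups and 42 in mitochondria-high cells, of which 30 came from the highest 5% of shares. On chromosome 2 the numbers were 0, 9, 4 and 56, with 35 in the highest 5%. With the floor of 3 fragments for the count of 0, this is 17.4-fold more per nuclear fragment. The lower bound of the log2 ratio for this copy was 3.77. For both copies together the log2 ratio per nuclear fragment was 5.93, with an interval from 4.0 to 11.8. This ratio is not independent of the selection of cells by mitochondrial reads. Those reads summed to 18667 in mitochondria-low and 1122196 in mitochondria-high cells. Per 1000000 mitochondrial reads there were 53.6 and 87.3 fragments at the copies, and the first value rests on 1 fragment. Fragments at either copy came from 112 kept cells, whose median mitochondrial read share was 1.63%. Of these cells, 85 were mitochondria-high and 1 mitochondria-low. The other 117 stretches held 244, 312, 274 and 273 fragments in the 4 groups, a log2 ratio of 0.059 with an interval of -0.19 to 0.31.

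**Figure D4:**
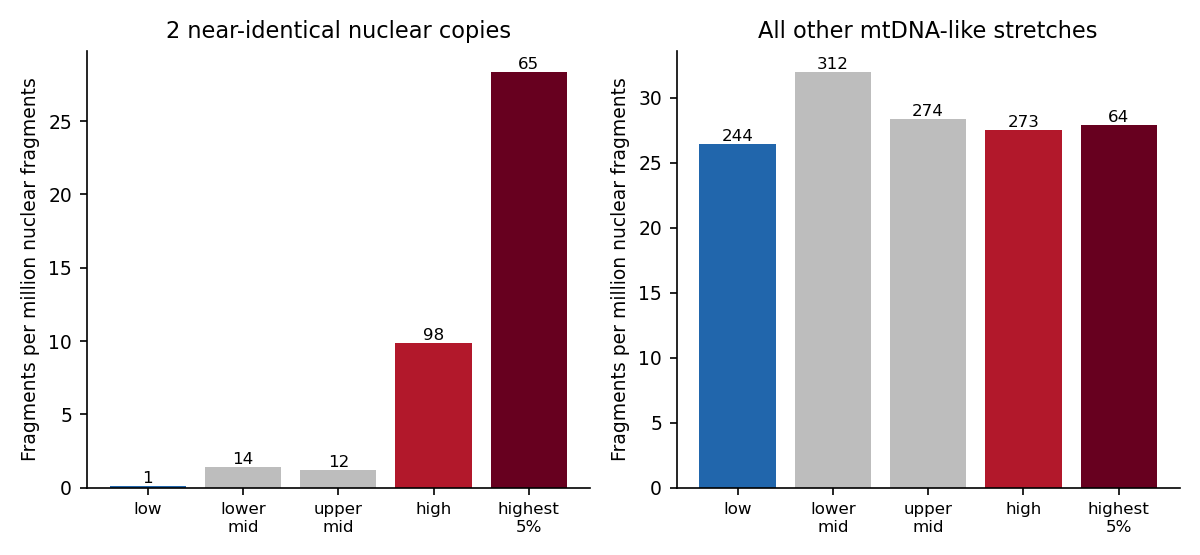
Bars show fragments per 1000000 nuclear fragments in the 4 groups of the mitochondrial read share and in the highest 5% of shares, for the near-identical nuclear copies on chromosomes 1 and 2 (left) and for the other 117 stretches similar to mitochondrial DNA (right). Numbers above the bars are fragments counted. On the left they go from 1 in the low to 98 in the high group, and on the right from 244 to 273.

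The fragments were not spread over the copies but piled up where the nuclear and mitochondrial sequences differ. Reads that fit both genomes equally well get low mapping quality, and how far this sets where fragments can lie was not tested. A position counts as covered if it lies between the ends of a fragment, whether or not a read showed that base. The chromosome 1 copy differs from the mitochondrial genome at 3 aligned positions, and all 56 fragments found there in kept cells covered the same one. There the nuclear copy has a run of 9 A and the mitochondrial reference a run of 8 A, within the mitochondrial gene mt-Tr for the arginine transfer RNA. The stretches are shown because they carry this difference, in the 5′ to 3′ direction of the mitochondrial reference, with the differing base in capitals. Since the run consists of 1 base, the extra base could be placed anywhere in it. The nuclear stretch is chr1:24612704-24612803, minus strand, and the mitochondrial one runs from position 9775 to 9873.
Nuclear copy, chromosome 1: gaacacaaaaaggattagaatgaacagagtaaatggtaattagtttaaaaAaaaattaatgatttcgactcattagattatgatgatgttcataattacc
Mitochondrial genome: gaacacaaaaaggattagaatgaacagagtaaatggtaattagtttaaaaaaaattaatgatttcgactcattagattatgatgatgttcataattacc

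On chromosome 2 the copy differs at 86 aligned positions, yet 66 of the 69 fragments in kept cells covered 1 of them. It lies between the mitochondrial genes mt-Tn and mt-Tc, where replication of the light strand starts, in a run of 11 A in the mitochondrial reference and 10 A in the nuclear copy. A neighbouring difference, an extra G of the nuclear copy within mt-Tc, was covered by 64 fragments. The nuclear stretch is chr2:22589721-22589819, minus strand, and the mitochondrial one runs from position 5156 to 5254. Capitals again mark the differing bases.
Nuclear copy, chromosome 2: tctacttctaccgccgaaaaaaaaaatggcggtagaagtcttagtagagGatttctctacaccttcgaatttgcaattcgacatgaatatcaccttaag
Mitochondrial genome: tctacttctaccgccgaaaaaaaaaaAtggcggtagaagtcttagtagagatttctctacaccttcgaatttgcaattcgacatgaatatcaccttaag

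Both piles are therefore at runs of A whose length differs between the 2 genomes. The fragment file lists nuclear chromosomes only, and the read sequences were not analysed here, so whether these fragments originated from the nuclear copies or from mitochondrial DNA was not tested. Reads with low mapping quality, which fit several places about equally well, moved in the same direction. They made up on average 5.87% of raw reads in mitochondria-low cells, 6.00% and 6.05% in the middle groups, 6.60% in mitochondria-high cells and 8.06% in the highest 5% of shares. Across the 3629 kept cells the least-squares slope was 0.515 percentage points per percentage point of mitochondrial reads. Both measures have raw reads as denominator, so the slope is a description. Without fragments in any of the 119 stretches, the log2 ratio of Myo3a was 0.24 with an interval of -0.13 to 0.62, and it was no longer past 0.5.

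Among genes with at least 500 fragments, Sgcz, encoding a sarcoglycan of the dystrophin complex, had the highest log2 ratio at 0.71 (0.45 to 0.97). It held 190, 230, 262 and 333 fragments from the low to the high group, an order that follows the share. Unc5d, encoding a netrin receptor, followed at 0.53 with 226, 268, 292 and 350 fragments. Next were Clvs1 at 0.52, encoding a lipid-binding protein of neurons, Arfrp1 at 0.40, a GTPase of the Golgi apparatus, Itgb2 at 0.39, the integrin subunit CD18 of leukocytes, and Cct4 at 0.39, a subunit of the cytosolic chaperonin. The list was completed by 8430436N08Rik, Pm20d2, Cntn5 and Tspan31, between 0.37 and 0.39. Sgcz, Unc5d and Cntn5 are very long genes that are barely accessible in these cells, with 0.889, 1.98 and 0.817 fragments per kb over all kept cells. Sgcz and Unc5d were at 0.42 and 0.34 when cells with excess overlaps were left out and at 0.18 and 0.083 in the highest 5% of shares. Without the highest 5% of shares they were at 0.83 and 0.64.

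The lowest log2 ratio among these genes was -0.52 (-0.78 to -0.26) for Gm31107, a long non-coding RNA gene with 294, 240, 291 and 220 fragments in the 4 groups. Nat8f1, encoding an N-acetyltransferase, was at -0.50 with 295, 261, 221 and 224 fragments, so that the upper-middle group was like the high group. Between the highest and lowest 10% of shares Nat8f1 was at -0.15 (-0.57 to 0.28), with at least 50 tags it was at 0.019, and Gm31107 was at -0.18 in the highest 5% of shares. They were followed by Zfp784, 2810032G03Rik, Tprkb, Gm48512, Rbm11, Mfsd14b, Nde1 and Zfyve1, between -0.46 and -0.40. Tprkb belongs to the complex that modifies transfer RNAs, Rbm11 is a splicing regulator and Nde1 acts with dynein at the centrosome. None of these genes encodes a mitochondrial protein in the lists used here. Fragments were assigned without regard to strand, so overlapping genes, such as Nat8f1 and Tprkb, share counts.

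At promoters, the highest log2 ratios were those of Psmg3 (0.66, 141 against 83 fragments), a proteasome assembly factor, Gm49607 (0.63), Gm21057 (0.60), Psd4 (0.58) and Taf1b (0.57), a subunit of the RNA polymerase I machinery. The lowest were 4930520O04Rik (-0.73, 119 against 184 fragments), Knstrn (-0.69), a kinetochore-associated protein, Wnk4 (-0.64), BC017158 (-0.63) and Esam (-0.62). Esam, an adhesion molecule of endothelial cells and HSCs, was the lowest member of the HSC list in the gene sums as well, at -0.33 (-0.51 to -0.15), with 558, 554, 543 and 476 fragments from the low to the high group.

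Nuclear genes for mitochondrial proteins differed little between the groups. For the respiratory chain, which passes electrons to oxygen and makes ATP, 77 of 78 listed genes were matched and 75 had at least 200 fragments. Their median log2 ratio was -0.015, against -0.011 for all genes, and none was past 0.5 in either direction, against a background of 0.105% and 0.0942%. Summed over all members the log2 ratio was -0.011 with an interval of -0.034 to 0.012, from 31741 fragments in mitochondria-high and 29795 in mitochondria-low cells. The interval covers counting error of the sum only, so it does not bound differences of single genes or between animals. Over all alternatives the sum lay between -0.034 and 0.015. The members ranged from -0.30 for Atp5j2, a subunit of ATP synthase, to 0.39 for Uqcrb, a subunit of complex III. From the low to the high group Atp5j2 held 131, 130, 131 and 114 fragments and Uqcrb 100, 143, 149 and 141. For Uqcrb the low group thus stood apart from all others.

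The summed log2 ratio was -0.018 for complex I, -0.013 for complex II, 0.051 for complex III with cytochrome c, -0.0022 for complex IV and -0.031 for ATP synthase, and each interval included 0. In promoter sums ATP synthase was at -0.072 (-0.13 to -0.012), an interval that contained the median of -0.029 for all promoters. The mitochondrial ribosome, which translates the mitochondrial messages, was slightly lower in mitochondria-high cells. The median of 75 members was -0.039 and the summed log2 ratio -0.038 (-0.062 to -0.014). When sums were scaled by promoter fragments, which make up a smaller part of all fragments in mitochondria-high cells, it was -0.012 with an interval that included 0.

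Genes that maintain or transcribe mitochondrial DNA had a summed log2 ratio of -0.024 (-0.061 to 0.014) over 29 genes, with 12 of 26 well-covered members above 0, close to the 45.8% of all genes. Individual members lay on both sides of 0. Tfam, which packages mitochondrial DNA and starts its transcription, was at -0.30 with an upper bound of -0.067. It held 326, 335, 332 and 284 fragments from the low to the high group. Twnk, the mitochondrial replicative helicase, was at -0.31 with 331, 287, 277 and 287 fragments in the same order. For Twnk the middle groups were thus like the high group. Polrmt, the mitochondrial RNA polymerase, was at -0.27 with 275, 274, 241 and 244 fragments. Ssbp1, the single-stranded DNA binding protein, was at -0.19 and Polg, the replicative polymerase, at 0.12, with intervals that included 0. Top1mt, the mitochondrial topoisomerase, was highest at 0.21. None of these was past 0.5. Tfam was at -0.52 and Twnk at -0.57 in the highest 5% of shares, whereas Polrmt was at 0.11. Single genes have few fragments in these 182 cells, so these values are imprecise.

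At their promoters Tfam was at -0.28 (280 against 247 fragments), Polrmt at -0.30 (224 against 195) and Twnk at -0.24, in the same direction as the gene sums that contain them. Among the regulators that drive nuclear genes for mitochondrial proteins, Nrf1 was at 0.044, Gabpa at -0.13, Esrra at 0.019, Ppargc1a at -0.073 and Ppargc1b at 0.14, and the interval of each included 0. The 17 biogenesis factors together were at 0.0039 (-0.031 to 0.039).

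Mitophagy, the removal of mitochondria by autophagy, showed no difference as a list, with a summed log2 ratio of 0.0017 (-0.033 to 0.036) over 20 genes. Its kinase Pink1 was at -0.015 and the receptor Bnip3l at 0.016. The lowest member was Bcl2l13 at -0.18 (-0.36 to -0.011) and the highest Fundc1 at 0.15 (-0.11 to 0.42). Genes for fusion, fission and cristae were at -0.013 (-0.055 to 0.029). Within them the fusion gene Mfn1 was the lowest at -0.35 with an upper bound of -0.078, from 248 and 209 fragments. Its relative Mfn2 was at 0.15, the inner membrane fusion gene Opa1 at -0.11 and the fission gene Dnm1l at 0.22. Members of the same process were thus found on both sides of 0.

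Other metabolic lists were equally close to 0. The summed log2 ratio was 0.0072 for protein import, with Tomm20 of the outer membrane translocase at 0.27 and Timm10 of the intermembrane space at -0.35. It was -0.019 for the TCA cycle and pyruvate dehydrogenase, -0.037 for fatty acid oxidation, -0.029 for glycolysis, -0.013 for the hypoxia response, -0.0029 for redox defence and FOXO and -0.0075 for the mitochondrial stress response, and each interval included 0. The largest single value in these lists was -0.43 for Hmox1, heme oxygenase 1, with 227 fragments in mitochondria-low and 181 in mitochondria-high cells. In the smaller set of cells with the highest 5% of shares Hmox1 was at -0.89. Between the whole groups none of the members was past 0.5, as is to be expected in short lists when 0.105% and 0.0942% of all genes were.

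**Figure D5:**
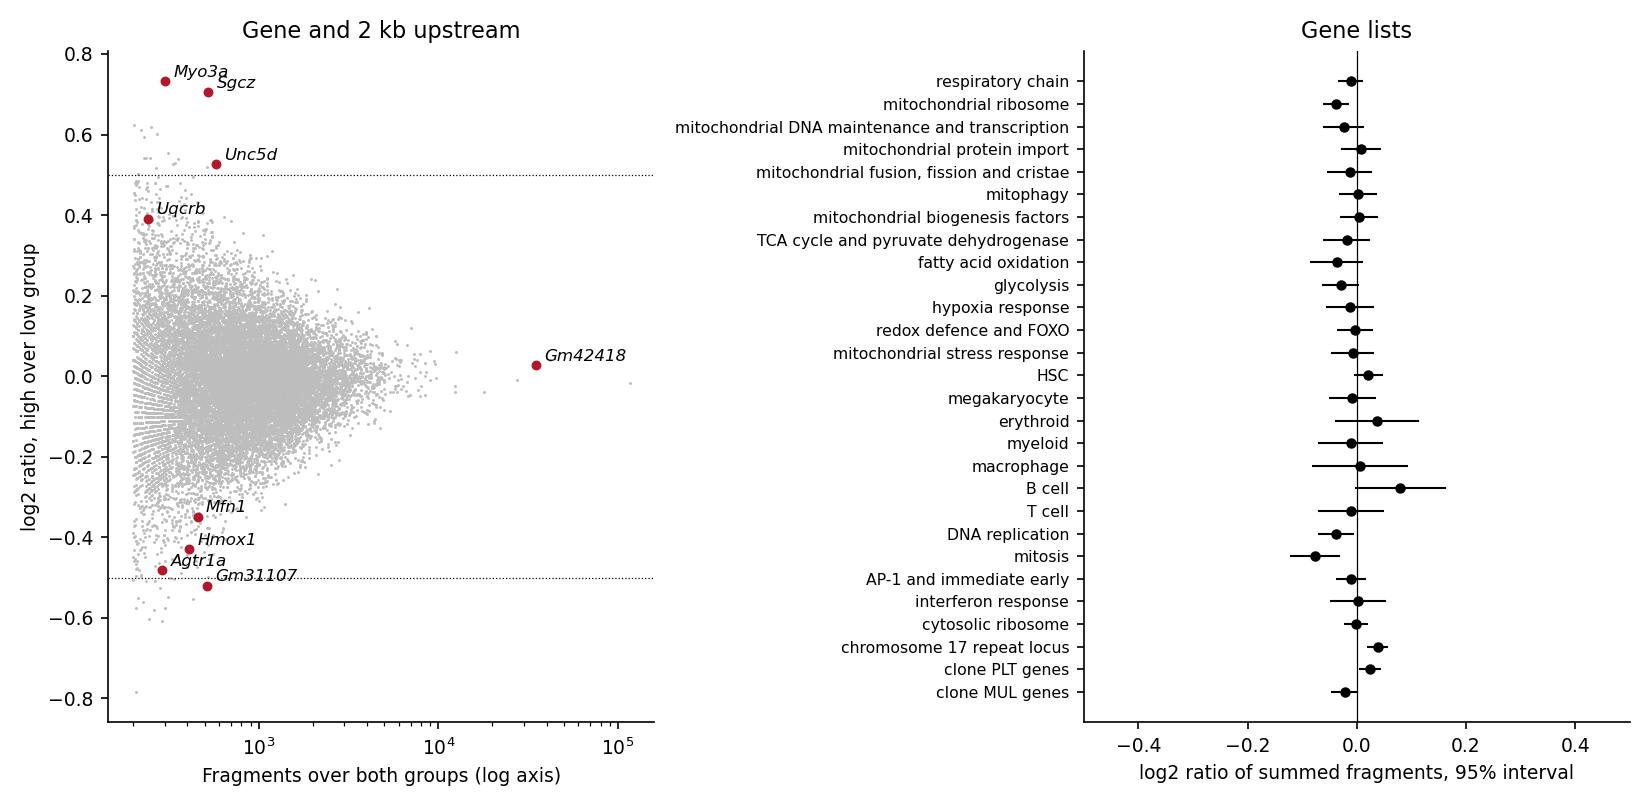
On the left, each of the 18050 genes with at least 200 fragments is a grey point at its fragments over both groups (log axis) and its log2 ratio of high to low, with dotted lines at 0.5 and -0.5 and selected genes in red. On the right, points are log2 ratios of summed fragments for gene lists, with 95% conditional binomial intervals. All lists shown lie between -0.077 and 0.080, whereas Myo3a is at 0.73 and Sgcz at 0.71.

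Promoters of mitochondrial genes often carry motifs for NRF1, GABPA and YY1. In RefSeq promoters of GRCm38.p6, spanning 250 bases before to 50 after the start, the NRF1 motif GCGCATGCG was present in 9.79% of 235 promoters of listed mitochondrial genes and in 1.81% of all 27025 promoters. The GABPA motif CCGGAAGTG was present in 5.96% and 2.06%, and the YY1 motif AAGATGGCG in 8.09% and 1.49%, with both strands searched. To show what was compared, stretches upstream of 2 genes are given 5′ to 3′ with the motif in capitals. That of Ndufa11, a subunit of complex I, is chr17:56717658-56717754 on the plus strand, and that of Opa1 is chr16:29579231-29579327 on the plus strand.
Ndufa11: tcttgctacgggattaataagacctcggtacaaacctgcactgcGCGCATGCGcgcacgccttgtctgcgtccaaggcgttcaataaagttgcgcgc
Opa1: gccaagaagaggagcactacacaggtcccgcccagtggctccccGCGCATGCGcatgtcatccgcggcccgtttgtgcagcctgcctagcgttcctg

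Accessibility of promoters with these motifs was close to that of all promoters. Over 388 well-covered promoters with the NRF1 motif the median log2 ratio was -0.018, over 449 with the GABPA motif -0.029 and over 322 with the YY1 motif -0.040, against -0.029 for all promoters. The summed log2 ratio of the mitochondrial promoters was -0.019 (-0.062 to 0.025) with the NRF1 motif, -0.088 (-0.16 to -0.020) with the GABPA motif and -0.012 (-0.077 to 0.054) with the YY1 motif, and each interval contained the median of all promoters. The promoter of Ndufa11 had 744 fragments in mitochondria-low and 751 in mitochondria-high cells, a log2 ratio of -0.089, and that of Opa1 had 195 and 180, a ratio of -0.22. Both intervals included 0. A match of letters is a description and does not show binding.

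Lineage marker genes were described over all kept cells and then compared between the groups, which does not check the identity of either group. Over all kept cells, HSC genes had a median of 54.2 fragments per kb, megakaryocyte genes 57.3, myeloid genes 42.2, erythroid genes 22.7, B cell genes 18.0, T cell genes 15.0 and macrophage genes 12.4. Openness is not expression, and RNA per gene was not analysed here. Between the groups, the HSC list was at 0.021 (-0.0057 to 0.048), with Vwf, which marks platelet-biased HSCs, at 0.061, Mecom at 0.062, Hlf at -0.026, Meis1 at 0.0079, Slamf1 at 0.018 and Procr at 0.14.

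The megakaryocyte list was at -0.0081, the myeloid list at -0.012, the erythroid list at 0.037, the macrophage list at 0.0052, the B cell list at 0.080 and the T cell list at -0.010, all with intervals that included 0. The transcription factors Gata1, Gata2 and Spi1 were at -0.10, -0.026 and -0.015, and the stem cell factor receptor Kit was at -0.026. Gene lists chosen in the study from PLT-HSC and MUL-HSC clones were at 0.024 (0.0042 to 0.043) and -0.022 (-0.046 to 0.0017). In the promoter sums they were at -0.020 and -0.034, against a median of -0.029 for all promoters. Of the clone genes, Agtr1a, the angiotensin receptor, was lowest at -0.48 and Syt11 highest at 0.33, and none of 60 PLT and 54 MUL clone genes with enough fragments was past 0.5, against 0.105% and 0.0942% of all genes, a background at which none is to be expected in lists of this size.

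Openness of the genes encoding the antigens was set beside the tags where the gene had at least 200 fragments and the antibody at least 200 tags over both groups. Gene and tags had the same sign for Procr and CD201, at 0.14 and 0.19, and for Cd68, at -0.044 and -0.53. The signs differed for Cd274, at -0.22 (upper bound 0.0083) against 0.077 for its tags, for Itgb3, encoding CD61, at -0.012 against 0.11, for Mertk at 0.051 against -0.21, and for P2rx7 at 0.068 against -0.071. Cd27 was at 0.23 while its tags were level. Apart from the tags of CD274, CD61, MERTK and CD68, these intervals included 0. Cd274 was at -0.41 and its tags at -0.24 in the highest 5% of shares.

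Both lists of proliferation genes had summed log2 ratios below 0. Genes of mitosis were at -0.077 (-0.12 to -0.030), with 7 of 20 members above 0, where 45.8% of all 18050 genes lay above 0. Nusap1, which bundles spindle microtubules, was at -0.35 with 458 and 386 fragments, and Top2a, the topoisomerase of dividing cells, at 0.18. Genes of DNA replication were at -0.038 (-0.070 to -0.0051), with 7 of 29 members above 0 against the same background. The replicative helicase subunit Mcm6 was lowest at -0.17 and Uhrf1 highest at 0.15, with intervals that included 0. Without the highest 5% of shares DNA replication was at -0.026 (-0.060 to 0.0091) and mitosis at -0.077 (-0.13 to -0.027). With at least 50 tags per cell both were above 0, at 0.054 and 0.045. Immediate early genes of the AP-1 family, which respond to handling of cells, were at -0.010 (-0.038 to 0.017), and at -0.063 (-0.11 to -0.018) in the highest 5% of shares. In promoter sums they were at -0.044 (-0.083 to -0.0053), against a median of -0.029 for all promoters. The interferon response was at 0.0018, with Oas2 at 0.42, and cytosolic ribosomal protein genes were at -0.0016 (-0.024 to 0.020), and at -0.058 (-0.094 to -0.022) in the highest 5% of shares, with Rps4x at 0.35 for all mitochondria-high cells.

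Gene length and openness moved slightly with the share. When the 18050 genes were divided into 10 bins, the shortest had a median log2 ratio of -0.031 and the longest 0.017. The bin of highest fragment density was at -0.027 and that of lowest density at 0.031. In the highest 5% of shares these medians were -0.068 and 0.031 for length and -0.084 and 0.054 for density. The lists differ in this respect, with a median of 288 fragments per kb for cytosolic ribosomal protein genes, 110 for DNA replication and 52.3 for mitosis. The repeat locus on chromosome 17 (Gm42418, AY036118 and 1 further gene), which contains ribosomal RNA sequence, held 42446 fragments in mitochondria-low and 46797 in mitochondria-high cells. Its log2 ratio was 0.038 (0.019 to 0.057) for all mitochondria-high cells, 0.17 (0.14 to 0.20) for the highest 5% of shares and -0.0038 for the others.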

How the data were processed

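ATAC, gene expression and antibody tag libraries of 1 pool of LT-HSCs were used. The authors deposited raw counts: per barcode, fragments, reads and UMIs obtained with Cell Ranger ARC 2.0.2 and its mm10 reference, and antibody tags counted per cell with CITE-seq-Count (version not given in the sources used here). Cell Ranger ARC collapses duplicates and shifts fragment ends for the transposase. The per-barcode table gives mitochondrial reads, but the fragment file lists nuclear fragments only. The RNA matrix was not analysed here.

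The 3629 kept cells held 38554133 nuclear fragments, 7681722 UMIs and 114345 tags. They were ordered by mitochondrial reads over raw ATAC reads, and the highest and lowest 25% were compared. Duplicate, unmapped, low-quality and mitochondrial reads are separate columns there, and how duplicates of mitochondrial reads were listed was not stated. Cells and lists were chosen with earlier results of these data known. Each group is 1 sample, so no test was run. Intervals (95%) are exact Poisson, Clopper-Pearson or conditional binomial intervals, and a log2 ratio of 0.5 with at least 200 fragments was used as limit. Genes were non-pseudogene entries of GENCODE M21. Of 822 list entries, 820 were matched, older symbols through RefSeq synonyms. Genes named were a fixed list of mitochondrial, HSC and antigen genes, the 10 highest and 10 lowest genes with at least 500 fragments, the 5 highest and 5 lowest promoters, the extremes of each list, members past 0.5, and genes with mitochondria-like sequence. Excess overlaps were called from autosomal sites with 3 or more fragments of up to 900 bp in 1 kb windows (Poisson, adjusted value below 0.01). Mitochondria-like stretches were found with BLAST 2.17.0 (E-value 1e-10). The ratio and its interval were tested on simulated independent Poisson counts, which do not include spread between cells. Alternatives are given in the closing section. Scripts ran under Python 3.11.15 (statsmodels 0.14.6, scipy 1.17.1, numpy 2.4.6, pandas 2.3.3, matplotlib 3.10.9). Columns of other samples numbered 0. A few genes that this rule names are not reported here.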

Additional observations from a re-analysis of the deposited data

Results flagged for a closer look

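Although the mice were female, mitochondria-high and mitochondria-low cells held 3775 fragments assigned to chromosome Y, a signal outside the comparisons made here. Per 10000 nuclear fragments there were 1.95 in mitochondria-low and 1.99 in mitochondria-high cells, with 1.97 and 1.98 in the middle groups and 2.03 in the highest 5% of shares. Tags that matched no antibody, which were not used either, numbered 7799 in both groups together, with 4.32 per cell in mitochondria-low and 4.28 in mitochondria-high cells. The source of either signal was not tested.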

How the results depend on the processing

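Cells of 1 pool give no replicate error, so every value rests on counting error, and values under about 200 fragments or 100 tags are imprecise. Values were taken as moved if they left their 95% interval or, for counts of genes, changed by more than 1.5 times. No paired analysis was possible because the groups are cells of 1 pool. The 2 divisions by the highest 5% of shares were chosen after seeing the data. Of 244 values for the main comparisons under the alternatives, 172 were unmoved, and using mapped reads as denominator, thinning cells to 6000 fragments and leaving out mitochondria-like sequence moved none of them. Single genes are not among these values, and leaving out mitochondria-like sequence moved Myo3a from 0.73 to 0.24. The cause of the moves below was not tested unless the alternative itself uses fewer cells or genes.

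With tertiles, 9 genes were past 0.5 downwards. With the highest and lowest 10% of shares, 60.1% of high and 39.7% of low cells were above the median nuclear depth, 44.9% of high cells were above the median of UMIs, and 16.8% and 2.20% had excess overlaps. In the same division the log2 ratio was 0.040 for CD61, 0.018 for CD274, -0.40 for CD357, -0.046 for all tags, -0.073 for the mitochondrial ribosome and -0.0065 for clone PLT genes, and 38 and 52 genes were past 0.5 upwards and downwards. With groups formed within 10 bins of depth, 50% of low cells were above the median depth, 7.25% of high and 7.36% of low cells had excess overlaps, and the log2 ratio was 0.029 for CD274 and -0.012 for all tags.

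With at least 50 tags (91 cells in each group), 40.7% of low cells were above the median of UMIs, 31.9% of high and 18.7% of low cells had excess overlaps, and 6.59% and 3.30% were PLT-gated. The log2 ratio was then 3.90 for the nuclear copies on chromosomes 1 and 2, 0.25 for CD357, -0.034 for the respiratory chain, -0.026 for HSC genes and -0.014 for clone PLT genes, Gm49607 turned to -0.46 and 8 genes were past 0.5 upwards. With no tag minimum, 6.55% of low cells were PLT-gated, and the log2 ratio was 0.043 for CD274 and 0.0080 for all tags. Without cells with excess overlaps these values were 6.06%, 0.046 and 0.011, and without the deepest 5% of cells 6.29%, 0.025 and -0.0100, with excess overlaps in 3.68% of high and 1.66% of low cells. Relative to the other antibodies CD274 was at 0.11 (0.1106).

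In promoters 29 genes were past 0.5 downwards, HSC genes were at 0.060, clone PLT genes at -0.020 and Clvs1 turned to -0.040. With scaling by promoter fragments 30 and 10 genes were past 0.5 upwards and downwards, and the log2 ratio was 0.015 for the respiratory chain, -0.012 for the mitochondrial ribosome, 0.050 for clone PLT genes and 0.0039 for clone MUL genes. This scaling shifts every gene and list by the same amount. The lists of DNA replication and mitosis ranged from -0.078 to 0.054 and from -0.080 to 0.045 over all alternatives. With a minimum of 20 fragments 886 and 592 genes were past 0.5, and with 500 fragments 3 and 1. Without the highest 5% of shares 47.3% of high cells were above the median depth, 7.86% had excess overlaps, and the log2 ratio was 0.15 for CD274, -0.062 for CD357 and 0.11 for all tags. The highest 5% alone gave 70.9%, 22.0% and 6.59% PLT-gated cells, with -0.32 for CD27, -0.10 for CD61, -0.24 for CD274, -0.65 for CD357, -0.28 for all tags, -0.071 for the mitochondrial ribosome, 0.053 for HSC genes, and 79 and 152 genes past 0.5.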
